A study of Mus musculus with 14 samples.

Results

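Transcripts of 10 genes of the TGF-beta pathway were followed in mouse liver: the ligands Tgfb1, Tgfb2 and Tgfb3, the ligand-holding protein Ltbp1, the activator Thbs1, the receptors Tgfbr1 and Tgfbr2, the signal carrier Smad3, the inhibitor Smad7, and the activin subunit gene Inhba. They were picked by gene symbol from a table of 45706 genes, and all 10 were among the 15674 genes with enough reads to be tested. RNA of whole liver was sequenced in 14 libraries from male C57BL6/J mice that entered the study at 8 weeks of age. MASH OAL (3 libraries, replicates 1, 2 and 4) and MASH OA (4 libraries) were mice fed for 16 weeks a diet that brings on MASH (metabolic dysfunction-associated steatohepatitis, in which fat, inflammation and fibrosis build up in the liver), and then kept on it for 6 more weeks with C18:1-leucine (OAL) or C18:1 (OA). C18:1 is a monounsaturated fatty acid, and in C18:1-leucine the amino acid leucine is coupled to it. MASH (3 libraries, replicates 2, 3 and 4) was the diet group whose titles name no compound, and CD (4 libraries) was kept on standard chow. The sources used here give no doses and no treatment period for the chow mice, and from its titles it cannot be told whether the MASH group received the vehicle that the protocol mentions.

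The library titled MASH OAL replicate 1 carries a treatment tag for C18:1, and the library titled MASH OA replicate 1 carries a tag for diet alone. Groups follow the titles, and the counts of called members, and of list genes in MASH OAL against MASH OA, are also given without both libraries where these change. The labels do not say that each library is a separate mouse, so p-values measure only the spread between libraries, which may be partly technical. Total counts ran between 33821874 and 51107248 per library. Hepatocyte transcripts such as albumin were abundant in every library, with 43097 to 110480 CPM (the count of a gene divided by library depth and scaled) summed over 9 hepatocyte markers.

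TGF-beta is secreted in a latent form, wrapped in its own propeptide and tied by LTBP proteins to the extracellular matrix. Integrins, thrombospondin-1 and proteases release it, after which it binds TGFBR2, which recruits and phosphorylates TGFBR1, and TGFBR1 in turn phosphorylates SMAD2 and SMAD3. In the liver this pathway is known as the main signal that turns stellate cells into collagen-producing myofibroblasts, while SMAD7 is induced by the pathway and shuts its receptors down.

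Start site windows are shown for 3 genes whose transcripts rose on the diet (Tgfb1, Tgfb2 and Ltbp1) and for Inhba, which did not pass the test in any comparison, so that the letters around starts with different behaviour can be set side by side. Each window holds 250 bases before and 50 bases after an annotated start, was taken from RefSeq on GRCm38.p6, and is written 5′ to 3′ on the strand of the gene. The windows are Tgfb1 at chr7:25686752-25687051 (plus strand), Tgfb2 at chr1:186705940-186706239 (minus strand), the second start of Ltbp1 at chr17:75178531-75178830 (plus strand) and Inhba at chr13:16011601-16011900 (plus strand). Capitals mark CAGACA or its reverse complement TGTCTG, the letters of the Smad box.
Tgfb1: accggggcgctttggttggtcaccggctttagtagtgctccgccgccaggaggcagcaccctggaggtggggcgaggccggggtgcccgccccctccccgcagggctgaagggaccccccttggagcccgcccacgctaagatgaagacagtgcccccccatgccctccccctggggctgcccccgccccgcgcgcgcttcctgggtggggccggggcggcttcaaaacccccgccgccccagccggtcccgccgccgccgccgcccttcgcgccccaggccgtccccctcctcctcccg
Tgfb2: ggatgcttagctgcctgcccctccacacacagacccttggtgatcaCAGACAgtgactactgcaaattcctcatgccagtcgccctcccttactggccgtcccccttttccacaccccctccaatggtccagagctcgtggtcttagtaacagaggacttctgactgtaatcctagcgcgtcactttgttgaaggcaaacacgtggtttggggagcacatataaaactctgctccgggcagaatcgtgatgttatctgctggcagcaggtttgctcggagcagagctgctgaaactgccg
Ltbp1: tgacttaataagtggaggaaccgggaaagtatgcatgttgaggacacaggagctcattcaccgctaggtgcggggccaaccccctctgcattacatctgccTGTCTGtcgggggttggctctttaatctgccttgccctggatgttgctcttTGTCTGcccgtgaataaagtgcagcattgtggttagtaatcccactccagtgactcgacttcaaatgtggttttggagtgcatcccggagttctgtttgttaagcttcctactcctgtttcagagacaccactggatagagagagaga
Inhba: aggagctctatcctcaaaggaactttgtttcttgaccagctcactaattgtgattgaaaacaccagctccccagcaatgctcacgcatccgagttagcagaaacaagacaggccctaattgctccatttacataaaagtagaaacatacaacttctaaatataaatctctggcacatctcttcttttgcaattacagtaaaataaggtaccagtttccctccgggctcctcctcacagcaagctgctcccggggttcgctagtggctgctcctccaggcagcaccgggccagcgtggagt
The windows differed in composition: G and C made up 77% of the Tgfb1 window, 54.3% of the Tgfb2 window, 50% of the Ltbp1 window and 47.7% of the Inhba window. CAGACA was searched on both strands and stood 204 bases before the start in Tgfb2, and 149 and 98 bases before the second start of Ltbp1. It was absent from the windows of Tgfb1 and Inhba. Several windows are not shown, and the choice of those shown affects how the sets compare. CAGACA was also absent from the first starts of Ltbp1 and Tgfbr1 and from the windows of Tgfbr2 and Smad3, which are not shown. The 9 windows searched came from 7 of the genes, and no window of Smad7, Tgfb3 or Thbs1 was searched. Of the 9 windows 3 held CAGACA, the third being the second start of Tgfbr1 (203 bases before the start). Of all 32851 mouse windows of that length 21% held it. The palindromic Smad box (0.213% of all windows), the AP-1 motif TGANTCA (7.81%) and the TEAD motif GGAATG (14.7%), each searched on both strands, were in 0 of the 9. A match in a window is a description of its letters, not a binding site.

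Compared per transcript length, the receptors and Smads were the most abundant of the 10 genes and Tgfb2 the least. In TPM, the usual scale that corrects for exon length, Tgfbr1 averaged 12.0 ± 0.854 in CD (SD, n = 4) and Tgfb2 0.119 ± 0.0446. Tgfb2 had the lowest mean TPM of the 10 in all 4 groups. Thbs1 had rank 9 of the 10 in CD, at 0.452 ± 0.133 TPM, and rank 6 in each of the 3 groups on the MASH diet, at 2.05 ± 0.780 TPM in MASH OAL, 6.35 ± 2.15 TPM in MASH OA (n = 4) and 4.92 ± 1.73 TPM in MASH (n = 3 each for MASH OAL and MASH). TPM is used here only to rank genes within a group. The values below are CPM, scaled for library composition so that groups can be compared.

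The first comparison asks what the diet did to the pathway. In MASH livers 7 of the 10 genes rose against CD livers: all 3 ligands, the ligand-holding Ltbp1, the activator Thbs1 and both receptors. No member fell. In the same test 20.4% of all genes were called higher and 15.1% lower, and the median log2 fold change was 0.95 over the 10 members and 0.01 over all tested genes. For these 7 genes every MASH library lay above every CD library, which held for 22.5% of all tested genes.

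Thbs1 (chr2:118111876-118127133, GRCm38), which encodes the secreted glycoprotein thrombospondin-1, moved furthest. It had 7.89, 15.7 and 10.2 CPM in MASH livers, against 1.81, 0.919, 1.46 and 1.09 CPM in CD livers. The lowest MASH library held more than 4 times the highest CD library. Its log2 fold change was 3.09 ± 0.33 (SE), an 8.49-fold rise with a 95% interval of 5.20 to 13.9 (edgeR adjusted p = 3.26e-05).

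Tgfb1 (chr7:25687002-25705077), the best-known of the 3 ligands in liver scarring, had 13.3, 15.7 and 14.5 CPM in MASH livers and 7.91, 6.73, 5.92 and 6.65 CPM in CD livers. The libraries of each group lay close together and the groups were far apart. The log2 fold change was 1.09 ± 0.14, or 2.13-fold (edgeR adjusted p = 0.000122). Tgfb3 (chr12:86056745-86079041), a ligand with a known part in palate and lung development, had 2.80, 4.64 and 4.22 CPM in MASH livers and 0.978, 0.860, 1.54 and 1.15 CPM in CD livers. It was 3.42-fold higher, with a log2 fold change of 1.77 ± 0.34 (edgeR adjusted p = 0.00159).

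Tgfb2 (chr1:186622792-186705989) was the rarest ligand and the most uneven. It had 0.828, 1.01 and 2.76 CPM in MASH livers and 0.288, 0.415, 0.176 and 0.442 CPM in CD livers, so that MASH replicate 4 stood well above the other MASH libraries. The log2 fold change was 2.22 ± 0.62 (edgeR adjusted p = 0.0139), and without MASH replicate 4 it was 1.48 with an adjusted p of 0.0993. Ltbp1 (chr17:75005568-75392512), which ties latent TGF-beta to the matrix, was likewise highest in that library, with 5.82, 5.49 and 10.3 CPM in MASH livers and 1.81, 2.34, 2.39 and 3.65 CPM in CD livers. It was 2.83-fold higher, with an interval of 1.57 to 5.11 (edgeR adjusted p = 0.0106), and without MASH replicate 4 the log2 fold change was 1.15 (adjusted p = 0.0616). MASH replicate 4 also stood apart in bile duct markers, with 393 CPM summed over 11 cholangiocyte genes against 90.4 and 104 CPM in the other MASH libraries. It was also the highest MASH library in the stellate cell, recruited macrophage, portal fibroblast, platelet and pancreas marker sums. In the Kupffer cell, endothelial, T and NK cell, neutrophil, hepatocyte and erythroid sums it was the lowest. The part of these markers in the Tgfb2 and Ltbp1 values was not tested.

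Both receptors rose in MASH livers relative to CD livers. Tgfbr2 (chr9:116084293-116175360), which binds the ligand first, had 44.7, 45.2 and 54.4 CPM in MASH livers and 23.7, 29.0, 28.0 and 29.2 CPM in CD livers. That is a 1.75-fold rise, with a log2 fold change of 0.81 ± 0.10 (edgeR adjusted p = 7.33e-05). Tgfbr1 (chr4:47353222-47414931), the kinase that phosphorylates SMAD2 and SMAD3, had 43.9, 44.3 and 50.8 CPM in MASH livers and 36.3, 39.8, 37.8 and 36.7 CPM in CD livers. The groups did not overlap although the rise was 1.23-fold (log2 fold change 0.30 ± 0.07, edgeR adjusted p = 0.00689).

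Smad3, Smad7 and Inhba gave no call. Smad3 (chr9:63646767-63757994) had 17.6, 18.1 and 19.6 CPM in MASH livers and 21.5, 21.7, 16.9 and 16.4 CPM in CD livers, with all MASH libraries inside the CD range. Its log2 fold change was −0.05 with a 95% interval of −0.30 to 0.20 (edgeR adjusted p = 0.746). Smad7 (chr18:75367529-75395935) had 17.4, 20.5 and 17.2 CPM in MASH livers and 15.8, 13.01, 15.8 and 17.8 CPM in CD livers, and its log2 fold change of 0.23 had an interval of −0.02 to 0.49 (edgeR adjusted p = 0.131). Inhba (chr13:16011851-16031621), which encodes the subunit of activin A, had 3.77, 2.52 and 4.01 CPM in MASH livers and 3.51, 4.62, 2.54 and 2.50 CPM in CD livers. The groups overlapped over almost their whole range, and the interval of its log2 fold change of 0.06 ran between −0.54 and 0.66 (edgeR adjusted p = 0.879).

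**Figure D1:**
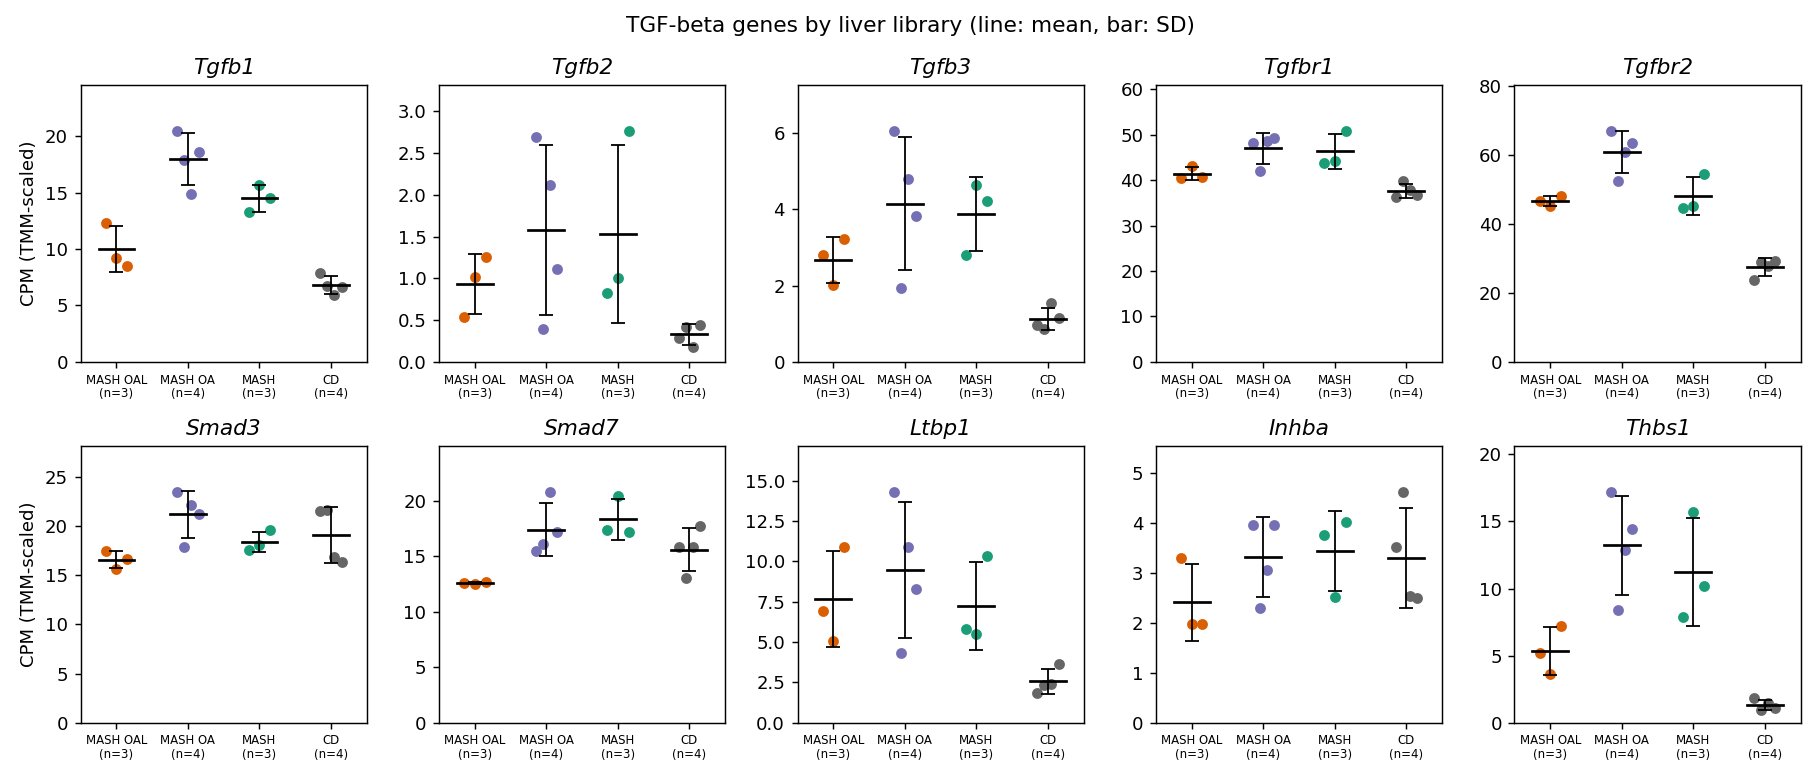
Each panel shows 1 gene, with CPM on the vertical axis and a point for each library of MASH OAL, MASH OA, MASH and CD; the bars give the group mean and SD. Thbs1 lies between 0.919 and 1.81 CPM in CD and between 7.89 and 15.7 CPM in MASH, while the Smad3 and Inhba groups overlap.

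MASH OA livers were set against CD livers to see the pathway with C18:1 on the diet. Again 7 genes were called higher (Tgfb1, Tgfb2, Tgfb3, Ltbp1, Thbs1, Tgfbr1 and Tgfbr2) and 0 lower, against 27.8% of all genes called higher and 24.9% lower. Thbs1 had 17.2, 8.38, 12.9 and 14.4 CPM in MASH OA livers, against the 0.919 to 1.81 CPM of CD livers given above (log2 fold change 3.32 ± 0.32, edgeR adjusted p = 5.04e-06). Tgfbr2 had 67.0, 52.5, 60.8 and 63.5 CPM in MASH OA livers, against 23.7 to 29.2 CPM in CD livers, a 2.22-fold rise (edgeR adjusted p = 1.48e-06). Tgfb1 had 20.5, 17.9, 14.9 and 18.6 CPM in MASH OA livers, 2.64-fold above CD livers at 5.92 to 7.91 CPM (edgeR adjusted p = 4.77e-06).

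For 6 of the 7 genes the MASH OA libraries all lay above the CD libraries, as for 24.6% of all genes. The exception was Tgfb2, which had 2.69, 0.398, 2.12 and 1.11 CPM in MASH OA livers and reached 0.442 CPM in CD livers, so that MASH OA replicate 2 fell inside the CD range. Ltbp1 was uneven in the same way, with 14.3, 4.29, 10.9 and 8.31 CPM in MASH OA livers. Cholangiocyte markers summed to 455, 136, 418 and 156 CPM in MASH OA replicates 1 to 4 and to 45.7 to 61.4 CPM in CD livers. The MASH OA libraries with the most Tgfb2, replicates 1 and 3, also had the highest sums of these markers. They were also highest in portal fibroblast and mesothelium markers (22.3 and 29.3 CPM, against 9.72 and 12.0 CPM). In Kupffer cell markers they were lowest (439 and 364 CPM, against 723 and 734 CPM). The part of the markers was not tested. MASH OA replicate 2 held the lowest value of its group in 8 of the 10 genes, while MASH OA replicate 1 held the highest in 7. All 7 calls held without each library in turn and without both libraries whose tags disagree.

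Between MASH OA livers and MASH livers, whose titles name no compound, no member passed the test. Whether these groups also differ in vehicle or length of treatment cannot be told from the labels. edgeR called 0 of the 10 members and 0 of 15674 genes (0%), against 2 members and 968 genes (6.18%) at an unadjusted p under 0.05. DESeq2 called 0 members and 3 genes, and voom 0 members. The libraries of both groups overlapped in all 10 genes, while they did not in 5.46% of all genes. The largest log2 fold change per SE was that of Tgfbr2, 0.34 ± 0.10, with a 95% interval of 0.13 to 0.55 (edgeR adjusted p = 0.77). The intervals were wide for the rare genes: that of Tgfb2 ran between −1.14 and 1.25 and that of Ltbp1 between −0.43 and 1.21, so both intervals reach beyond a log2 fold change of 1.

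MASH OAL livers were set against CD livers to ask how much of the diet's pattern was measured under C18:1-leucine. Here 5 of the 10 genes were called higher, namely Tgfb1, Tgfb3, Ltbp1, Thbs1 and Tgfbr2, and 0 were called lower, against 10.2% of all genes higher and 4.34% lower. The MASH OAL libraries all lay above the CD libraries in 7 genes (16.8% of all genes), the other two being Tgfb2 and Tgfbr1. Thbs1 had 5.18, 3.63 and 7.18 CPM in MASH OAL livers and at most 1.81 CPM in CD livers, a 4.03-fold rise with an interval of 2.46 to 6.58 (edgeR adjusted p = 0.00237). Tgfbr2 had 46.7, 45.3 and 48.2 CPM in MASH OAL livers and at most 29.2 CPM in CD livers, a 1.70-fold rise (edgeR adjusted p = 0.000702). These 2 calls held without each library in turn and with groups taken from the tags.

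The other 3 calls were less firm. Tgfb1 had 12.4, 9.18 and 8.47 CPM in MASH OAL livers, 1.47-fold above CD livers (edgeR adjusted p = 0.0237). The adjusted p was 0.0996 without MASH OAL replicate 1, 0.064 without CD replicate 3 and 0.0514 without CD replicate 4. Tgfb3 had 2.79, 2.02 and 3.22 CPM in MASH OAL livers, 2.36-fold above CD livers (edgeR adjusted p = 0.0295). It lost its call without CD replicate 1, 2 or 4 (adjusted p = 0.0675, 0.0698 and 0.0603) and without MASH OAL replicate 1 or 4 (0.0685 and 0.117). Ltbp1 had 6.94, 5.08 and 10.9 CPM in MASH OAL livers, 3.00-fold above CD livers (edgeR adjusted p = 0.0203). Its adjusted p was 0.0523 without CD replicate 1, 0.0524 without CD replicate 3 and 0.104 without MASH OAL replicate 4. Only 3 members were called without CD replicate 1, 3 or 4, without MASH OAL replicate 1 or 4, and without both libraries whose tags disagree.

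Smad7 went the other way by its values. It had 12.6, 12.5 and 12.7 CPM in MASH OAL livers, all below the 15.8, 13.01, 15.8 and 17.8 CPM of CD livers, with a log2 fold change of −0.30 that did not pass (interval −0.56 to −0.05, edgeR adjusted p = 0.0985). The MASH OAL libraries differed from each other by 0.781% of their mean (coefficient of variation), the smallest value of any of the 10 genes in any group. Tgfb2 had 0.537, 1.01 and 1.25 CPM in MASH OAL livers, above all CD libraries, and did not pass (2.83-fold, interval 1.10 to 7.28, edgeR adjusted p = 0.124). Tgfbr1 had 40.6, 43.2 and 40.6 CPM in MASH OAL livers and 36.3 to 39.8 CPM in CD livers (edgeR adjusted p = 0.209).

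MASH OAL livers were also set against MASH livers, with the same limit on vehicle and length of treatment. edgeR called 0 of the 10 members, against 0.0702% of all genes, that is 11 genes. At an unadjusted p under 0.05 there were 3 members, Tgfb1, Smad7 and Thbs1, and 2836 genes (18.1%). DESeq2 and voom each called these 3 genes lower. Over both directions, DESeq2 called 7.09% of all genes that it gave an adjusted p, with 533 lower and 427 higher. The share with voom was 3.83%, with 378 lower and 223 higher. Smad7 had 12.6, 12.5 and 12.7 CPM in MASH OAL livers and 17.4, 20.5 and 17.2 CPM in MASH livers, with a log2 fold change of −0.54 ± 0.13 (edgeR adjusted p = 0.0755, DESeq2 0.00756, voom 0.036). Thbs1 had 5.18, 3.63 and 7.18 CPM in MASH OAL livers and 7.89, 15.7 and 10.2 CPM in MASH livers, with −1.08 ± 0.32 (edgeR adjusted p = 0.122, DESeq2 0.0288, voom 0.0499). Tgfb1 had 12.4, 9.18 and 8.47 CPM in MASH OAL livers and 13.3, 15.7 and 14.5 CPM in MASH livers, with −0.53 ± 0.15 (edgeR adjusted p = 0.112, DESeq2 0.0315, voom 0.0433).

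In 5 of the 10 genes every MASH OAL library lay below every MASH library, as in 12% of all genes: those 3, Tgfbr1 and Smad3. Tgfbr2 showed a different picture, with 46.7, 45.3 and 48.2 CPM in MASH OAL livers inside the 44.7 to 54.4 CPM of MASH livers (log2 fold change −0.04, interval −0.27 to 0.19, edgeR adjusted p = 0.889). Ltbp1 also overlapped, with 6.94, 5.08 and 10.9 CPM in MASH OAL livers and 5.82, 5.49 and 10.3 CPM in MASH livers (log2 fold change 0.08, interval −0.80 to 0.96, edgeR adjusted p = 0.951). edgeR called 0 members also without each library in turn and without both libraries whose tags disagree.

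The difference between the compounds was measured in MASH OAL against MASH OA, 2 groups that share the diet and the fatty acid and differ by the coupled leucine. All 10 genes had a lower mean in MASH OAL, and 4 fell: Tgfb1, Thbs1, Tgfbr2 and Smad7. In the same test 8.89% of all genes were called lower and 7.34% higher, and the median log2 fold change was −0.46 over the members and −0.02 over all genes. Doses are not given, so it cannot be said that they were matched.

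Tgfb1 had 12.4, 9.18 and 8.47 CPM in MASH OAL livers, against 20.5, 17.9, 14.9 and 18.6 CPM in MASH OA livers. Every MASH OAL library lay below every MASH OA library. The log2 fold change was −0.84 ± 0.15, with an interval of −1.16 to −0.53 (edgeR adjusted p = 0.00452). It kept its call without each library in turn, with an adjusted p of 0.00308 to 0.032, and without both libraries whose tags disagree.

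Thbs1 had 5.18, 3.63 and 7.18 CPM in MASH OAL livers, against 17.2, 8.38, 12.9 and 14.4 CPM in MASH OA livers, again without overlap. The log2 fold change was −1.31 ± 0.31 (interval −1.98 to −0.64, edgeR adjusted p = 0.0151), and the adjusted p was 0.0558 without MASH OAL replicate 1 and 0.0751 without MASH OAL replicate 2. Smad7 had 12.6, 12.5 and 12.7 CPM in MASH OAL livers, against 15.5, 16.1, 20.8 and 17.2 CPM in MASH OA livers. Its log2 fold change was −0.46 ± 0.12 (edgeR adjusted p = 0.02), and its adjusted p was 0.0614 and 0.0761 without MASH OAL replicates 1 and 2. Tgfbr2 had 46.7, 45.3 and 48.2 CPM in MASH OAL livers, against 67.0, 52.5, 60.8 and 63.5 CPM in MASH OA livers. Its log2 fold change was −0.38 ± 0.10 (edgeR adjusted p = 0.0213), and it lost its call without MASH OA replicate 1 or 4 (adjusted p = 0.064 and 0.0593) and without MASH OAL replicate 1 or 2 (0.0644 and 0.0897).

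The other 6 genes did not pass. Smad3 had 17.5, 15.7 and 16.6 CPM in MASH OAL livers, against 23.5, 17.9, 22.2 and 21.2 CPM in MASH OA livers, and was the closest to the threshold (log2 fold change −0.35 ± 0.12, edgeR adjusted p = 0.0533). DESeq2 and voom called it (adjusted p = 0.0292 and 0.0112), as did edgeR without CD replicate 1 or 2 (0.0466 and 0.0498), while its adjusted p was 0.192 without both libraries whose tags disagree. It was the fifth gene without overlap, as 14.2% of all genes lay wholly lower. Tgfbr1 had 40.6, 43.2 and 40.6 CPM in MASH OAL livers and 48.1, 42.0, 48.6 and 49.4 CPM in MASH OA livers, with only MASH OA replicate 2 inside the MASH OAL range (log2 fold change −0.18, interval −0.34 to −0.02, edgeR adjusted p = 0.108). Tgfb3 had 2.79, 2.02 and 3.22 CPM in MASH OAL livers and 6.06, 1.93, 4.80 and 3.83 CPM in MASH OA livers (log2 fold change −0.64, interval −1.34 to 0.07, edgeR adjusted p = 0.199). The intervals of Tgfb2 (−2.02 to 0.47), Ltbp1 (−1.13 to 0.51) and Inhba (−1.07 to 0.15) allow a difference in either direction. Inhba had 3.31, 1.97 and 1.97 CPM in MASH OAL livers and 3.95, 2.30, 3.06 and 3.96 CPM in MASH OA livers.

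The number of called genes hung on single libraries. It was 1 without MASH OAL replicate 1 or 2, and 7 without MASH OA replicate 2, where Tgfb3, Tgfbr1 and Smad3 joined (edgeR adjusted p = 0.0367, 0.0351 and 0.0206). Without both libraries whose tags disagree Tgfb1 alone was called, with Thbs1 at an adjusted p of 0.119, Tgfbr2 at 0.139 and Smad7 at 0.072, and with groups taken from the tags none was called.

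**Figure D2:**
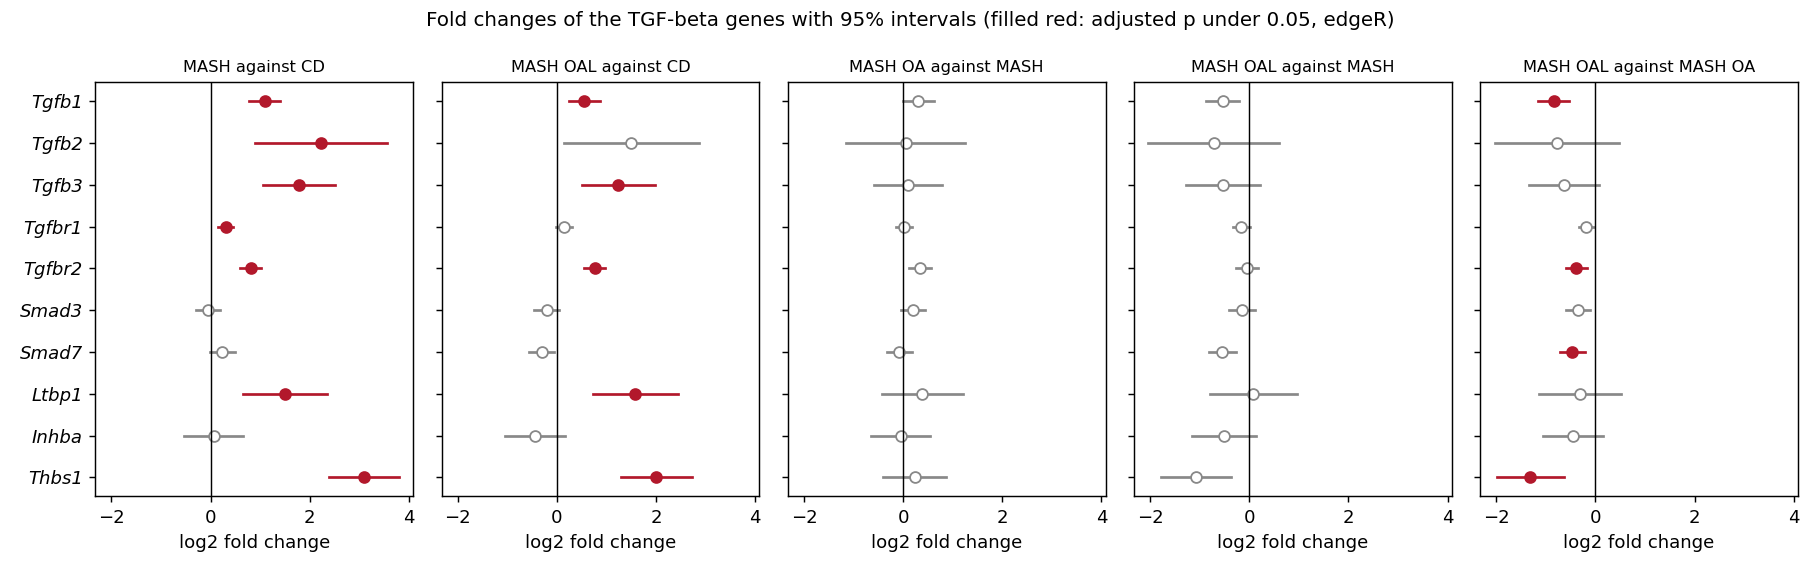
Log2 fold changes of the 10 genes (horizontal axes) in 5 comparisons, as points with 95% intervals from edgeR; filled red points passed an adjusted p of 0.05. Thbs1 has the largest value on the diet, 3.09 in MASH against CD, and in MASH OAL against MASH OA all 10 points lie below 0.

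The wider pathway was read from 7 lists of related genes. Of 21 tested TGF-beta target genes, 16 were called higher in MASH than in CD livers and 0 lower, beside 20.4% and 15.1% of all genes, with a median log2 fold change of 1.55. They included Tnc, which encodes the matrix protein tenascin-C, with a mean of 6.89 ± 2.83 CPM in MASH livers and 0.708 ± 0.224 CPM in CD livers (SD, n = 3 and 4, log2 fold change 3.27 ± 0.33, edgeR adjusted p = 2.22e-05). Loxl2, a collagen crosslinking enzyme, rose by 1.95 ± 0.22 on the log2 scale (edgeR adjusted p = 4.4e-05), and Vim, the intermediate filament of mesenchymal cells, by 1.92 ± 0.21 (edgeR adjusted p = 4.06e-05). Of 21 genes of latency and activation, 14 were higher and 0 lower in MASH livers (median 1.13). Among them were Tgm2, an enzyme that crosslinks the latent complex to the matrix, with 1.39 ± 0.15 (edgeR adjusted p = 2.97e-05), Nrros, which holds latent TGF-beta on macrophages, with 1.37 ± 0.22 (edgeR adjusted p = 0.000518), and Fbn1, the fibrillin to which LTBPs attach, with 1.81 ± 0.28 (edgeR adjusted p = 0.000427).

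The matrix proteins that bind TGF-beta were higher in 5 of 8 cases and lower in 0 in MASH against CD livers (median 1.34). In this comparison 20.4% of all genes were called higher and 15.1% lower. Without MASH replicate 4, 3 of the matrix proteins were higher. Emilin1, which restrains the processing of the TGF-beta precursor, rose by 1.32 ± 0.20 (edgeR adjusted p = 0.000311). Of 8 activins, inhibins and antagonists, 4 were higher and 0 lower, with Inhbe, the liver's own activin subunit, at 1.24 ± 0.25 (edgeR adjusted p = 0.00271), in contrast to the values of Inhba above. The difference between Inhbe and Inhba was not tested.

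The calls among the other receptors and the Smads went in both directions, beside 20.4% of all genes called higher and 15.1% lower. Counts this small in lists of 9 or 10 genes are not read as a result about the lists. Of 9 other receptors and co-receptors 2 were higher, Acvrl1 (1.29 ± 0.17, edgeR adjusted p = 0.00012) and the co-receptor Eng (0.47 ± 0.09, edgeR adjusted p = 0.00161), and 1 was lower, the activin receptor Acvr2a, which fell by 0.38 ± 0.11 (edgeR adjusted p = 0.0124, and 0.066 without MASH replicate 4). Of 9 Smads and partners, Smad6, an inhibitory Smad, was higher by 0.41 ± 0.12 (edgeR adjusted p = 0.0151), and 3 were lower: Smad2 (fell by 0.25 ± 0.08), its common partner Smad4 (fell by 0.21 ± 0.06) and Zfyve9, the anchor that brings SMAD2 and SMAD3 to the receptor (fell by 0.27 ± 0.08). All 4 calls were lost without MASH replicate 4, with adjusted p-values of 0.0524 to 0.0619. Smad2 also lost its call without CD replicate 2, 3 or 4 or MASH replicate 2 (0.0632 to 0.133), without the filter on low counts (0.0728) and with the compared groups fitted alone (0.097), and Smad6 without MASH replicate 3 (0.062) and with voom (0.0545). Of 10 intracellular inhibitors only Pmepa1, which binds SMAD2 and SMAD3, was called, higher by 1.48 ± 0.29 (edgeR adjusted p = 0.00194). This count of 1 was 3 (2 higher, 1 lower) with voom or without CD replicate 1. It was 2 (1 higher, 1 lower) with DESeq2, with scaling by relative log expression or with groups taken from the tags. Without CD replicate 2, MASH replicate 2 or MASH OA replicate 4 it was 2 (2 higher, 0 lower).

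In MASH OAL against MASH OA livers, 8 of the 21 target genes were lower and 0 higher, beside 8.89% and 7.34% of all genes (median log2 fold change −0.83). Tnc had 2.75, 3.14 and 2.03 CPM in MASH OAL livers and 5.64, 9.29, 8.99 and 6.15 CPM in MASH OA livers (−1.51 ± 0.31, edgeR adjusted p = 0.00916). The count of 8 was 3 without MASH OAL replicate 1, 2 without MASH OAL replicate 2, 3 without MASH OA replicate 1, 5 without MASH OA replicate 4, 1 without both libraries whose tags disagree, 13 with DESeq2 and 14 with voom, which called 11.6% and 15.3% of all genes lower.

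Of the 21 genes of latency and activation 7 were lower and 0 higher in MASH OAL against MASH OA (median −0.71). Of all genes 8.89% were called lower and 7.34% higher. Tgm2 had 173, 161 and 184 CPM in MASH OAL livers and 398, 316, 315 and 355 CPM in MASH OA livers (log2 fold change −1.003 ± 0.153, edgeR adjusted p = 0.00329). Itgav, the integrin subunit shared by the main activating integrins, fell by 0.46 ± 0.10 on the log2 scale (edgeR adjusted p = 0.0103, and 0.0805 without both libraries whose tags disagree), and Nrros fell by 0.94 ± 0.22 (edgeR adjusted p = 0.0143, and 0.0721 without MASH OAL replicate 2). The count was 4 without MASH OAL replicate 1 or MASH OA replicate 3, and 2 without MASH OAL replicate 2. It was 3 without MASH OA replicate 1 and 3 without both libraries whose tags disagree. Without the filter on low counts it was 4, and with voom, which called 15.3% of all genes lower, 11. Acvrl1 was the only other receptor called, and fell by 1.08 ± 0.17 (edgeR adjusted p = 0.00331). The count of receptors was 2, 1 higher and 1 lower, with DESeq2, with voom or with the compared groups fitted alone. It was the same without CD replicate 1 or MASH replicate 2. Without MASH OAL replicate 4 it was 3, with 2 higher and 1 lower.

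In the remaining lists 7 genes passed in MASH OAL against MASH OA, where 8.89% of all genes were called lower and 7.34% higher. The counts changed when single libraries were left out, and are not read as a result about these lists. Without both libraries whose tags disagree only Fst of these 7 was called (edgeR adjusted p = 0.034), and the other 6 had adjusted p-values of 0.117 to 0.263. Emilin1 was the only one of 8 matrix proteins called, and fell by 0.74 ± 0.20 (edgeR adjusted p = 0.0259). The count was 0 without MASH OA replicate 1 or 3 or MASH OAL replicate 1 or 2, 2 with voom or without MASH OA replicate 2, and 0 with the compared groups fitted alone. Of 8 activins, inhibins and antagonists 2 were lower: Inhbe, which fell by 0.88 ± 0.26 (edgeR adjusted p = 0.0359), and Fst, the activin-binding follistatin, which fell by 1.24 ± 0.39 (edgeR adjusted p = 0.0446). That count was 0 without the filter on low counts, without MASH OA replicate 3 or 4 or MASH OAL replicate 1 or 2, 1 with the compared groups fitted alone or without CD replicate 2, 3 or 4, MASH replicate 3 or MASH OAL replicate 4, and 4 with voom. Of 10 intracellular inhibitors 2 were lower, the corepressor Tgif1 (fell by 0.49 ± 0.13, edgeR adjusted p = 0.0211) and Pmepa1 (fell by 0.90 ± 0.29, edgeR adjusted p = 0.0475). That count was 0 without MASH OAL replicate 1 or 2. It was 4 (1 higher, 3 lower) with DESeq2, with voom or without MASH OA replicate 2. It was 1 without the filter or with the compared groups fitted alone. Without CD replicate 2, 3 or 4 or MASH OA replicate 1, 3 or 4 it was also 1. Of 9 Smads and partners Smad6 was lower (fell by 0.43 ± 0.12, edgeR adjusted p = 0.0254) and Zfyve9 higher by 0.29 ± 0.08 (edgeR adjusted p = 0.0251). That count was 0 without MASH OAL replicate 1 or 2, and 1 with the compared groups fitted alone or without MASH OA replicate 1, 3 or 4 or MASH OAL replicate 4. With groups taken from the tags no gene of the 7 lists was called in this comparison.

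**Figure D3:**
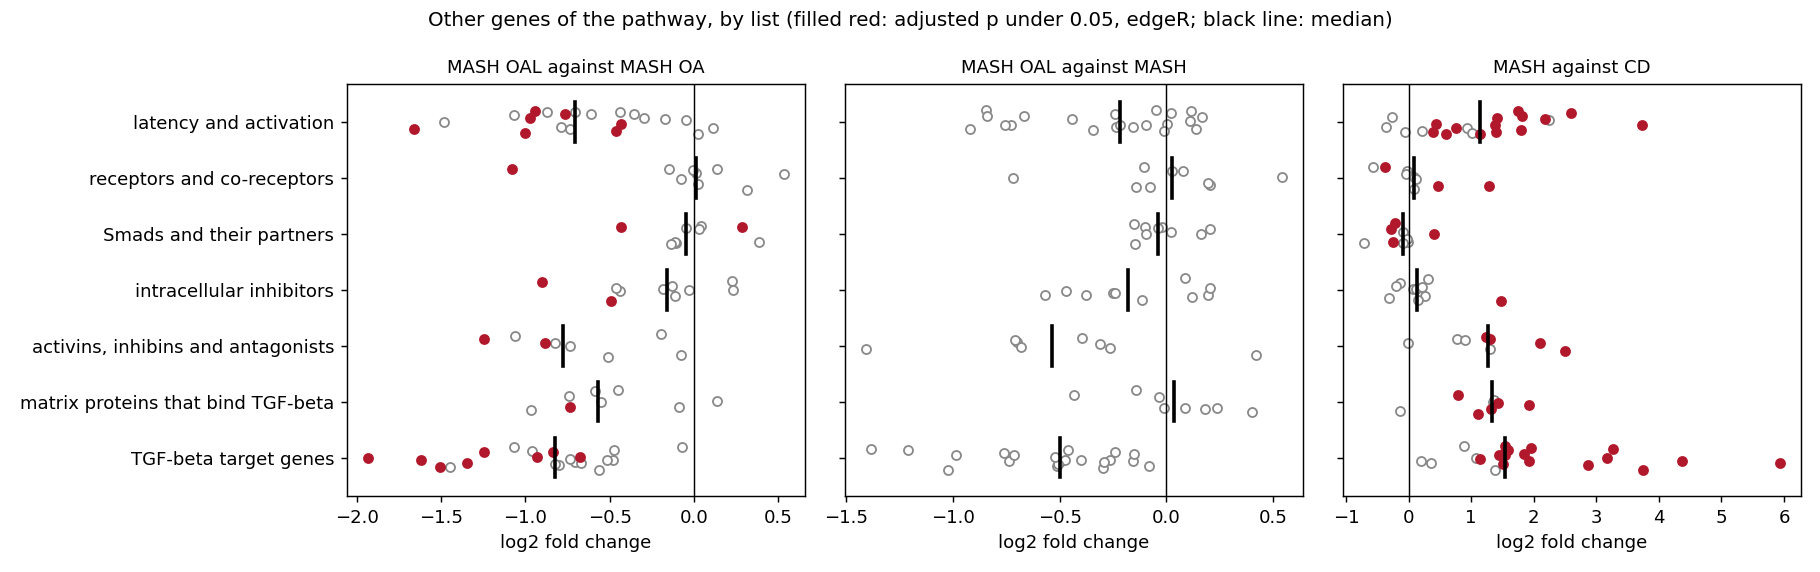
Log2 fold changes (horizontal axes, a separate scale in each panel) of the genes of 7 lists, 1 point a gene, in MASH OAL against MASH OA, MASH OAL against MASH and MASH against CD; black lines are list medians and filled red points passed an edgeR adjusted p of 0.05. Target genes have a median of −0.83 in the first panel and 1.55 in the last.

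Against CD, 19 of 21 target genes were higher in MASH OA (27.8% of all genes) and 12 of 21 in MASH OAL (10.2% of all genes), with 0 lower in either. In MASH OA against MASH edgeR, DESeq2 and voom called 0 of the 86 tested genes of the 7 lists, with 6 at an unadjusted edgeR p under 0.05, beside 6.18% of all genes. In MASH OAL against MASH edgeR called 0 of the 86, with 17 at an unadjusted p under 0.05, while DESeq2 called 5 and voom 2. Over all genes the shares were 18.1% at the unadjusted p, 7.09% with DESeq2 and 3.83% with voom. Comparisons that use the same CD, MASH or MASH OA libraries are not independent of each other.

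Markers of several other liver cells differed between the groups. Transcripts of 9 recruited macrophage genes, among them Trem2, Gpnmb and Ccr2, summed to 77.1, 120 and 166 CPM in MASH OAL, to 359, 230, 278 and 357 CPM in MASH OA, to 177, 235 and 315 CPM in MASH and to 17.2 to 29.8 CPM in CD. None of the 9 was at 0 in any library. Group means fell in the order MASH OA, MASH, MASH OAL and CD, as they did for Tgfb1, Tgfb2, Tgfb3, Tgfbr1, Tgfbr2 and Thbs1. The means of the cholangiocyte and of the T and NK cell sums had that order too. Cholangiocyte markers summed to 74.3 to 226 CPM in MASH OAL, 136 to 455 CPM in MASH OA, 90.4 to 393 CPM in MASH and 45.7 to 61.4 CPM in CD. Transcripts of 12 stellate cell genes summed to 378 to 459 CPM in MASH OAL, 346 to 564 CPM in MASH OA, 389 to 450 CPM in MASH and 245 to 325 CPM in CD. Platelets carry TGF-beta1 and thrombospondin-1, and 7 platelet genes summed to 4.36 to 8.14 CPM in MASH OAL, 5.26 to 7.74 CPM in MASH OA, 4.78 to 6.65 CPM in MASH and 4.11 to 5.69 CPM in CD, with overlap between all groups. Transcripts of 9 T and NK cell genes summed to 3.40 to 4.53 CPM in MASH OAL, 5.45 to 13.7 CPM in MASH OA, 5.69 to 6.86 CPM in MASH and 2.59 to 3.57 CPM in CD, so that MASH OAL lay wholly below MASH OA and MASH. Transcripts of 6 Kupffer cell genes summed to 117 to 501 CPM in MASH OAL, 364 to 734 CPM in MASH OA, 421 to 683 CPM in MASH and 237 to 370 CPM in CD. Portal fibroblast and mesothelium genes, 8 in number, summed to 13.2 to 21.0 CPM in MASH OAL, 9.72 to 29.3 CPM in MASH OA, 9.40 to 18.2 CPM in MASH and 3.65 to 6.39 CPM in CD, with every library on the MASH diet above CD. Pancreas genes summed to 998 CPM in MASH OAL replicate 2, against 4.66 and 5.57 CPM in the other MASH OAL libraries, and neutrophil genes to 45.6 CPM in MASH OAL replicate 1, against 5.58 and 5.95 CPM in the others. Hepatocyte markers summed to 64472 to 87889 CPM in MASH OAL, 43097 to 55628 CPM in MASH OA, 54632 to 62586 CPM in MASH and 84438 to 110480 CPM in CD. The part of any of these cells in the members' values was not tested, and in whole liver fewer cells of a type and less RNA per cell cannot be told apart.

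**Figure D4:**
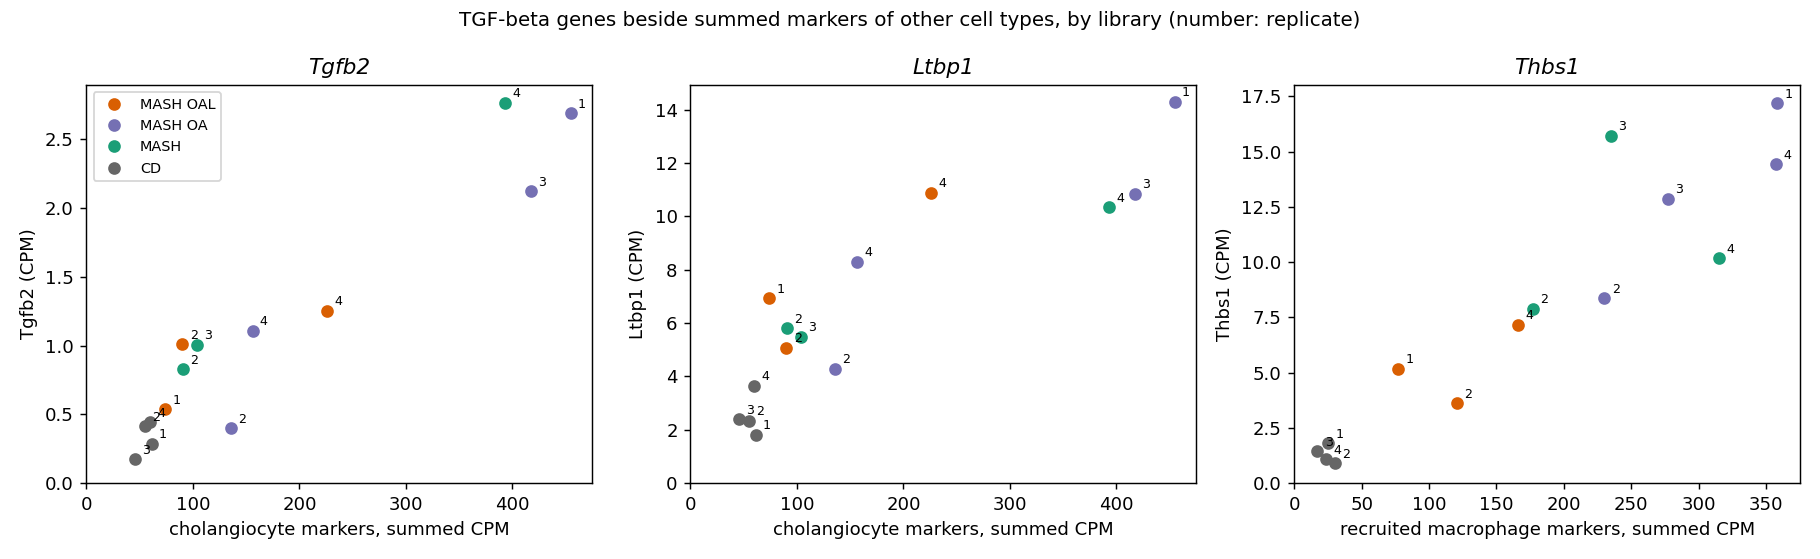
CPM of Tgfb2 and Ltbp1 against the summed CPM of 11 cholangiocyte markers, and of Thbs1 against that of 9 recruited macrophage markers, with 1 point a library, coloured by group and numbered by replicate. MASH replicate 4 and MASH OA replicates 1 and 3, at 393 to 455 CPM of cholangiocyte markers, are the libraries with the most Tgfb2. The 4 CD libraries lie at the lower left of each panel. MASH OAL replicate 1, at 74.3 CPM of cholangiocyte markers, had 6.94 CPM of Ltbp1, above the 4.29 CPM of MASH OA replicate 2 at 136 CPM.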

How the data were processed

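Liver RNA was extracted with RNeasy Mini kits and made into libraries with NEBNext Ultra II, per the labels' protocols. The authors deposited a table of expected counts per gene, made with HTSeq, DESeq2 1.42.1 and GRCm38 according to the submitters' processing notes; which did what, the aligner and the strand setting are not given. Since 5.09% to 5.76% of a library's deposited expected counts were fractional, they were rounded. The 6 tables of the authors' own comparisons were not used, since their group letters have no key here.

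Groups were read from the titles. Genes needed a count of 10 in enough libraries for a smallest group of 3, and a total of 15. The 14 libraries entered 1 model in edgeR 4.0.16 (R 4.3.3), scaled by TMM and tested two-sided by the robust quasi-likelihood F test, with Benjamini-Hochberg adjustment over 15674 genes, a threshold of 0.05 and 95% intervals. CPM are TMM-scaled. TPM, which is not TMM-scaled, and coordinates used GENCODE M21 exons (45143 of 45706 identifiers matched). Start site windows came from RefSeq, protein sequences were not used here. The fit was tested on simulated counts.

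The alternatives changed the scaling (relative log expression), the filter (none), the tool (DESeq2 1.42.0, or voom of limma 3.58.1 with sample weights) or the model (compared groups alone, a replicate block), took groups from the tags, or left out each library in turn or both whose tag and title disagree. The labels name no batch. Pairs of libraries of a group differed by far more than counting error (chi-square per gene of 25.02 to 167.8, where counting error alone gives about 1). The members and lists were chosen with earlier results of these data known. All members are named, and of each list up to 4 called genes per direction with the smallest p, from which the text gives a part; some genes are not reported here. Opposite-strand genes overlapping Tgfb2, Tgfb3 and Thbs1 held at most 1 count in a library where they are in the table.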

Additional observations from a re-analysis of the deposited data

Results flagged for a closer look

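In groups of 4 libraries, a library was marked where its gap to the nearest other library took up most of the group's range (Dixon's criterion). Of 44 such groups 5 were marked, where chance gives about 2.2. Tgfbr1 had 41.99 CPM in MASH OA replicate 2, while the other MASH OA libraries held 48.1 to 49.4 CPM. The same library stood apart in 3 marker sums: endothelial genes at 402 CPM (others 305.7 to 319.9 CPM), neutrophil genes at 26.4 CPM (13.4 to 14.5 CPM) and erythroid genes at 413.6 CPM (159.6 to 192.4 CPM). Pancreas genes summed to 218.6 CPM in CD replicate 2 and to 5.49 to 7.36 CPM in the other CD libraries. Without MASH OA replicate 2 the Tgfbr1 difference of MASH OAL against MASH OA was −0.23 on the log2 scale (edgeR adjusted p = 0.0351), against −0.18 with it (adjusted p = 0.108).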

How the results depend on the processing

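Of 23 called member values, 506 alternatives were computed, of which 472 kept direction and call, 34 lost the call and 0 turned direction. Of 37 values without a call, 814 alternatives gained a call in 17 cases and turned direction in 47. The cause of these changes was not tested. Counts over the lists were put under these alternatives after the data were seen. The members called numbered 2 in MASH OAL against CD with groups from the tags and 3 without both libraries whose tags disagree; 3 in MASH OAL against MASH with DESeq2 and 3 with voom; and 0 and 1 in MASH OAL against MASH OA with the tags and without both libraries. Leaving out a library in turn gave 3 to 5 members in MASH OAL against CD and 1 to 7 in MASH OAL against MASH OA. Over all genes, MASH OAL against CD had 653 calls with the tags (976 to 2427 leaving out a library), and MASH OA against MASH had 3 with DESeq2. MASH OAL against MASH had 30 without the filter, 960 with DESeq2, 601 with voom, 51 with the groups fitted alone, and 0 with the tags and 0 without both libraries (0 to 61 leaving out a library). MASH OAL against MASH OA had 4459 with voom, 1621 with the groups alone, 0 with the tags and 487 without both libraries (756 to 3043 leaving out a library).

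Directions that turned belonged to values without a call. Smad3 in MASH against CD was 0.017 with voom and 0.041 with the tags (−0.13 to 0.013 leaving out a library), and Inhba ran between −0.065 and 0.27 leaving out a library. Inhba in MASH OA against CD was −0.060 with the tags and −0.080 without both libraries (−0.11 to 0.22). In MASH OA against MASH the tags gave Tgfb1 −0.0049, Tgfb2 −0.79, Tgfb3 −0.40, Tgfbr1 −0.050, Ltbp1 −0.24 and Thbs1 −0.32, and the fit without both libraries gave Tgfb2 −0.32 and Tgfb3 −0.13. Leaving out a library there gave Tgfb2 −0.32 to 0.80, Tgfb3 −0.13 to 0.33, Tgfbr1 −0.016 to 0.094, Smad7 −0.17 to 0.010 and Inhba −0.23 to 0.088. In MASH OAL against MASH, Ltbp1 was −0.055 with voom and −0.17 with the tags (−0.26 to 0.43), Tgfb2 ran between −1.02 and 0.024, and Tgfbr2 between −0.091 and 0.056. In MASH OAL against MASH OA the tags gave Tgfb2 0.10 and Ltbp1 0.070, and the fit without both libraries gave Ltbp1 0.028.

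Pairs of libraries with the same replicate number did not stand apart from the other pairs. Over 18 pairs of the same number the correlation of deviations ran between −0.2447 and 0.4234 (median 0.032). Over 55 pairs of different numbers it ran between −0.5154 and 0.4979 (median −0.015). Of 14 libraries 3 correlated best with their own number, and whether the numbers pair the libraries was not tested. The fit with a replicate block changed no member's call. It left 0 of the 2 activin and antagonist calls of MASH OAL against MASH OA (Inhbe at an edgeR adjusted p of 0.0807, Fst at 0.105). In MASH against CD it called 2 intracellular inhibitors (1 higher, 1 lower) instead of 1. It gave Tgfb3 −0.018 in MASH OA against MASH, and called 35 genes in MASH OAL against MASH. Rare genes limit the precision: Tgfb2 stood below 1 CPM in all CD libraries.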

Other observations

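For each member, the tested genes with the most similar profile over the 14 libraries were looked up, by the mean absolute distance of standardized log2 CPM (0 for identical profiles; the median distance to all genes was 1.09 to 1.12). Among the nearest genes were Abcg3, G6pdx and Fcer1g for Tgfb1 (distance 0.1196 for the first), Arl11, Ccl7 and Cnn2 for Thbs1 (0.1351), Plxdc2, Dcn and Pamr1 for Ltbp1 (0.1351), Mical1 and Myl12b for Tgfbr2 (0.1326), Col16a1, Kirrel1 and Mark1 for Tgfb3 (0.1591), and Chmp4c, Mak and Ninl for Tgfb2 (0.1909). Distances were larger for Tgfbr1 (Slc37a2, 0.2298), Smad3 (Sppl3, 0.3587), Inhba (Pcgf2, 0.3871) and Smad7 (Id1, 0.441). These are descriptions over libraries that share group and depth, with no test.

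Pancreas transcripts summed to 998 CPM in MASH OAL replicate 2 and, as given above, to 218.6 CPM in CD replicate 2, while every other library held at most 7.68 CPM.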
